A study of Rattus norvegicus with 10 samples.

Results

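The genes of antigen presentation by the major histocompatibility complex (MHC) were examined in 10 rat liver libraries, 5 from rats with a sleeve gastrectomy (SG) and 5 from sham-operated rats (SHAM). Members were taken by name: every gene called RT1, the rat MHC, together with B2m, Tap1, Tap2, Tapbp, Nlrc5, Ciita and Cd74. This gave 37 genes of 20226 in the table, 25 on the class I side (20 RT1 genes, B2m, Tap1, Tap2, Tapbp and Nlrc5) and 12 on the class II side (10 RT1 genes, Cd74 and Ciita). The SG livers came from diabetic, wild-type Wistar rats 3 months after removal of most of the stomach; the SHAM livers came from rats of the same strain and diabetic model, with no time in their labels, so time and operation cannot be told apart. Diabetes had been induced in both groups by 4 weeks of a diet with 60% of its calories from fat and a single 35 mg/kg dose of streptozotocin, which kills pancreatic beta cells. The protocol shared by all libraries also names a 16 h fast, a glucose value of 16.7 mmol/L and a time of 3 days after streptozotocin. RNA was depleted of ribosomal RNA and sequenced as paired ends. Whether every library stands for a separate rat is not stated in the labels, and the p-values therefore reflect only how far these libraries spread. Below, each library is called a liver.

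MHC class I molecules sit on nearly every nucleated cell and show peptides from inside the cell to CD8 T cells. Their heavy chain pairs with the light chain beta-2-microglobulin (B2m), and peptides reach it through the transporter Tap1 and Tap2 with the help of tapasin (Tapbp). Class II molecules are pairs of an alpha and a beta chain on macrophages, dendritic cells and B cells; the invariant chain Cd74 guides them to endosomes, where the DM pair exchanges Cd74 remnants for peptide. The regulator Nlrc5 switches on class I genes and Ciita class II genes, both through promoters that carry the W/S, X and Y boxes, and interferon gamma raises both sets. In liver, hepatocytes carry class I at modest levels, and Kupffer cells, the resident macrophages, carry class II.

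The promoters of 7 members are printed to show letters of the X and Y boxes or of an interferon-responsive element. Tapbp shows only the latter. The windows run from 250 bases before to 50 bases after the gene start in RefSeq, assembly GRCr8, and are written from 5′ to 3′ along the gene. Capitals mark matches, on either strand, to CCAAT (the core of the Y box, ATTGG when reversed), TGACG (the core of the X2 box, CGTCA when reversed) and the core of the interferon-stimulated response element (GAAA, any 2 bases, GAAA; TTTC in place of GAAA when reversed). Matches may overlap, as both TGACG copies do in RT1-Ba.
B2m (chr3:129549080-129549379, plus strand): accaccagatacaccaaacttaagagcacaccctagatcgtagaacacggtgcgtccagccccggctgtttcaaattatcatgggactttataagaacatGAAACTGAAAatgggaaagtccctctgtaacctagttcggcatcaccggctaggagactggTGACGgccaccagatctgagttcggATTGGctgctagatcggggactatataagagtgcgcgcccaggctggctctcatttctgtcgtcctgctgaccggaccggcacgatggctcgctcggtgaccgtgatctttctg
Tapbp (chr20:4967828-4968127, minus strand): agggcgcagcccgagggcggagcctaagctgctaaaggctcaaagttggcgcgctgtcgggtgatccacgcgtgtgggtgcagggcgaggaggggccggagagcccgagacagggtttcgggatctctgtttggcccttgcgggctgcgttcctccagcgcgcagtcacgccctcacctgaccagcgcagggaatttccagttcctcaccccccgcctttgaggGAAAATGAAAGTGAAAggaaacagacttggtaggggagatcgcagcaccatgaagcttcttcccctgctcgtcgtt
RT1-A1 (chr20:4906959-4907258, plus strand): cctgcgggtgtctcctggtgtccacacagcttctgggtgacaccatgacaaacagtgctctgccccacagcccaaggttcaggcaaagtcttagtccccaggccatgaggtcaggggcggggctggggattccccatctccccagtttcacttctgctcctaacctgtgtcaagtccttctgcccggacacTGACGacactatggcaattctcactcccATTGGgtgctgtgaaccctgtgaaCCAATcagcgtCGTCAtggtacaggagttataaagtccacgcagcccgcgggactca
RT1-A2 (chr20:4872621-4872920, plus strand): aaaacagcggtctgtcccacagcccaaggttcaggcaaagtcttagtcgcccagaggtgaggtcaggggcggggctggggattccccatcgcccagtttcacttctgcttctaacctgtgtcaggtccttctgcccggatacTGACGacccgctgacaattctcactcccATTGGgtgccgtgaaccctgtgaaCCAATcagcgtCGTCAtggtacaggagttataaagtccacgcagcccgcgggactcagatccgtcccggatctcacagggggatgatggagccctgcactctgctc
Cd74 (chr18:56526956-56527255, plus strand): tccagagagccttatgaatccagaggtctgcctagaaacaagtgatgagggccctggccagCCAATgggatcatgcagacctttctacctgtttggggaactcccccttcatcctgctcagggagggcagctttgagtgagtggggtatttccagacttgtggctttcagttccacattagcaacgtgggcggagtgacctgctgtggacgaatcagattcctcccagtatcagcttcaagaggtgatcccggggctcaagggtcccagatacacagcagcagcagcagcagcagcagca
RT1-Da (chr20:4515165-4515464, plus strand): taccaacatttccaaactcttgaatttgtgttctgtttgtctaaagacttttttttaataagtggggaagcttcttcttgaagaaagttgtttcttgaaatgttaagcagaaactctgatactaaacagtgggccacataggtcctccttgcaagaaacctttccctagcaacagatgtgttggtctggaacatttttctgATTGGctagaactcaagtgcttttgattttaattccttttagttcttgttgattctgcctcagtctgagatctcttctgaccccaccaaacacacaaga
RT1-Ba (chr20:4576807-4577106, plus strand): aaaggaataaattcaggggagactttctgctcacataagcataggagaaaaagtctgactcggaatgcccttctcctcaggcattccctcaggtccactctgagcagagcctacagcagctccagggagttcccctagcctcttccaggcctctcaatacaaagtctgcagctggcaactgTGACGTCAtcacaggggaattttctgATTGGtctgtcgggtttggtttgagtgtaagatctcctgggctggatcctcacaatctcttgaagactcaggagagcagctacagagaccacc

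Windows were present for 31 of the 37 members. CCAAT stood in 10 of 10 class II windows and in 13 of 21 class I windows, against 37.5% of all 33469 windows of this length. The core of the interferon-stimulated response element stood in 7 of 21 class I windows (B2m, Tap1, Tap2, Tapbp, RT1-N3, RT1-S2 and RT1-S3) and in 0 of 10 class II windows, against 3.92% of all windows. TGACG stood in 6 of 21 class I windows and in RT1-Ba as 1 of 10 on the class II side, against 21.2% of all windows. The interferon gamma activated site, searched as TTCNNNGAA, stood in 1 class I window (RT1-M3-1) and 0 class II windows, against 8.87% of all windows. These are matches of letters, and no binding was measured.

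All RT1 genes lay on chromosome 20 of the build named by the submitters, Rnor_6.0, as did Tap1 (bases 3979035 to 3989669), Tap2 (5198258 to 5212624) and Tapbp (5468078 to 5479819). B2m lay on chromosome 3 (114087287 to 114093309), Nlrc5 on chromosome 19 (10905542 to 11004295), Ciita on chromosome 10 (5213350 to 5260608) and Cd74 on chromosome 18 (56071478 to 56080849). Levels are in FPKM, read fragments per kilobase of RNA and per library size, summed over the isoforms of a gene on its own strand. Only genes averaging 1 FPKM or more were tested, a filter that 26 members passed, 19 on the class I side and 7 on the class II side, among 11139 genes in all. Total estimated counts per library were 77617460 to 92110190 in SG and 65824088 to 85520959 in SHAM. Many RT1 class I genes are near copies of one another, and the spans of several overlap in the table, in part only through assembled isoforms. The assembler could split reads between such genes, and their single levels are uncertain.

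Class I outweighed class II in every liver. The 20 class I RT1 genes summed to 213, 395, 246, 275 and 239.9 FPKM in SG 1 to SG 5, against 325, 206, 217, 239.8 and 364 FPKM in SHAM 1 to SHAM 5. The 10 class II RT1 genes summed to 16.8, 55.8, 18.1, 24.2 and 25.1 FPKM in SG 1 to SG 5, against 15.9, 17.5, 12.8, 36.8 and 41.3 FPKM in SHAM 1 to SHAM 5. The highest sums of both classes were in SG 2 and SHAM 5, SHAM 1 was also high for class I and SHAM 4 for class II, and the groups overlapped. Class I averaged 274 ± 71.1 FPKM in the SG livers and 270.5 ± 70.1 FPKM in the SHAM livers (SD, n = 5 each), a log2 ratio of 0.02. Class II averaged 28.004 ± 16.0 FPKM in the SG livers and 24.8 ± 13.1 FPKM in the SHAM livers (SD, n = 5 each), a log2 ratio of 0.17. The ratio of class I to class II was 7.07 to 13.6 in SG and 6.52 to 20.5 in SHAM. These ratios of sums were described and not tested. Here and below, more cells of a type and more RNA per cell cannot be told apart in whole liver.

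**Figure D1:**
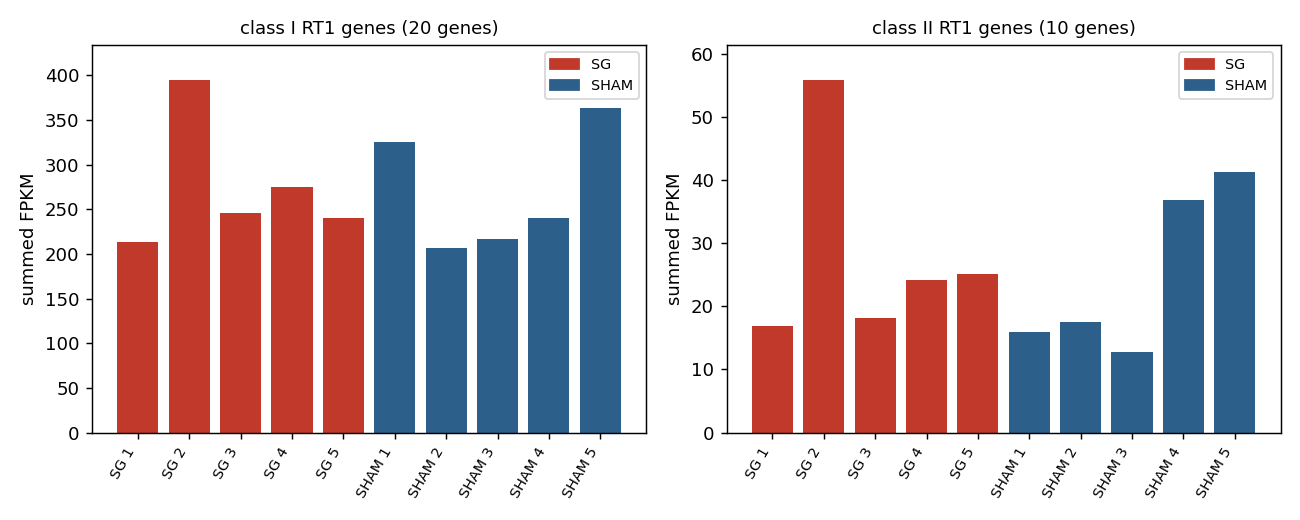
Summed FPKM of the 20 class I RT1 genes (left) and the 10 class II RT1 genes (right) in each liver, 1 bar a library, SG in red and SHAM in blue. The class II sum reached 55.8 FPKM in SG 2, against 16.8 to 25.1 in the other SG livers and 12.8 to 41.3 in SHAM.

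Between SG and SHAM, no member passed the test: 0 of 26 fell below 0.05 after adjustment in the edgeR quasi-likelihood test (adjusted p from 0.991 to 0.997), and 0.0% of all 11139 genes did. At an unadjusted p below 0.05, edgeR gave 505 of all genes (4.53%), and 3 of 26 members (11.5%): Tapbp, RT1-T24-3 and RT1-S3. All 3 had lower counts in SG, a direction in which 1.85% of all genes reached that p, and 0 members did so on the higher side, against 2.68% of all genes. Limma on log2(FPKM + 0.5) called 0 genes at an adjusted p, and 0 members against 6.41% of all genes at an unadjusted p; DESeq2 called 18 genes (0.162%), none of them a member, and gave 4 members (the same 3 and RT1-CE5) against 5.62% of all genes at an unadjusted p. The FPKM of the groups did not overlap for 0 of 26 members, against 1.34% of all genes. The median log2 fold change, SG over SHAM, was 0.09 over the members, -0.06 on the class I side (9 above 0, 10 below), 0.10 on the class II side (5 above, 2 below) and -0.01 over all genes, of which 47.4% lay above 0 and 52.6% below. The class II median turned on single livers, at 0.43 without SHAM 5 and -0.42 without SG 2. For 8 of 26 members, against 84.9% of all genes, the 95% confidence interval held no change above 2-fold in either direction; for the other 18 members such a change was inside the interval.

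**Figure D2:**
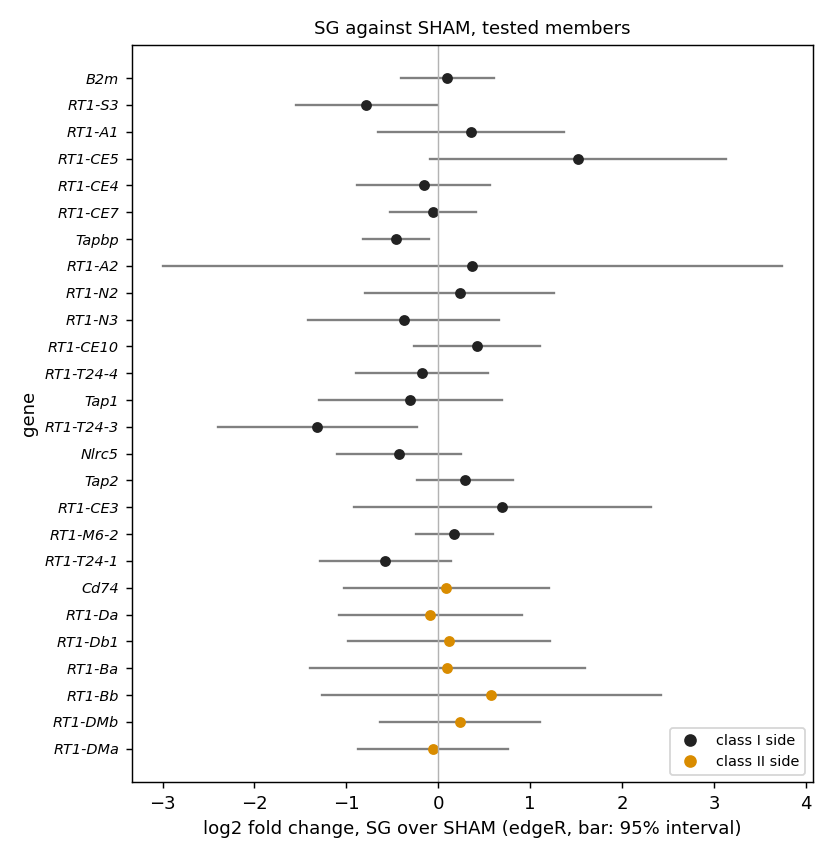
Log2 fold change of the 26 tested members, SG over SHAM, from edgeR; dots are estimates and bars 95% confidence intervals, class I side in black and class II side in orange. The intervals of RT1-A2 (-3.00 to 3.73) and RT1-CE5 (-0.09 to 3.13) are among the broad ones, and those of B2m (-0.41 to 0.61) and Tapbp (-0.82 to -0.10) are short.

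B2m, the most abundant member, had 86.6, 151, 117, 113 and 147 FPKM in SG 1 to SG 5, against 97.9, 102, 69.5, 100.8 and 164 FPKM in SHAM 1 to SHAM 5. The highest were SHAM 5 and SG 2, the lowest SHAM 3, and the groups overlapped; its log2 fold change was 0.10 ± 0.23 (SE). Tapbp, which holds empty class I molecules beside the transporter until peptide binds, had 12.1, 23.4, 13.8, 20.01 and 22.5 FPKM in SG 1 to SG 5, against 21.3, 25.1, 18.3, 22.0 and 23.3 FPKM in SHAM 1 to SHAM 5. In FPKM, SG 1 and SG 3 lay below all SHAM livers and the other 3 SG livers lay inside the SHAM range. The estimated counts, which were tested, ordered the livers otherwise. Before scaling to library size they were 4209, 4474, 4407, 3838 and 5167 in SG 1 to SG 5, against 4152, 3531, 5023, 5944 and 7649 in SHAM 1 to SHAM 5. Tapbp averaged 18.4 ± 5.11 FPKM in the SG livers and 22.0 ± 2.51 FPKM in the SHAM livers (SD, n = 5 each), and its log2 fold change in counts was -0.46 ± 0.16 (SE), with an unadjusted p of 0.0164 in edgeR. Without SHAM 5 the fold change of Tapbp was -0.32. Its main isoforms traded places between livers: an assembled 9-exon form made up 5.34% to 66.2% of Tapbp FPKM in SG and 5.21% to 59.6% in SHAM.

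Tap1, a chain of the peptide transporter, had 4.55, 9.86, 2.96, 4.85 and 6.31 FPKM in SG 1 to SG 5, against 4.30, 3.74, 3.86, 6.56 and 15.0 FPKM in SHAM 1 to SHAM 5. SHAM 5 and SG 2 stood above the rest. Its partner Tap2 had 2.57, 4.54, 2.80, 2.61 and 2.57 FPKM in SG 1 to SG 5, against 1.4998, 2.69, 2.23, 3.01 and 2.09 FPKM in SHAM 1 to SHAM 5, with SG 2 highest, SHAM 1 lowest and the groups overlapping. The log2 fold changes were -0.30 ± 0.45 for Tap1 and 0.29 ± 0.23 for Tap2 (SE), neither past the test (adjusted p = 0.993 and 0.991 in edgeR). Without SHAM 5 the value of Tap1 was 0.24. Nlrc5, the class I regulator, had 2.09, 3.54, 2.37, 2.02 and 2.09 FPKM in SG 1 to SG 5, against 2.21, 2.02, 2.21, 3.17 and 5.41 FPKM in SHAM 1 to SHAM 5. SHAM 5, SG 2 and SHAM 4 were high and the other 7 livers lay between 2.02 and 2.37 FPKM, a narrow range shared by both groups. Its log2 fold change was -0.42 ± 0.31, and -0.08 without SHAM 5.

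The classical class I genes of the rat are RT1-A1 and RT1-A2. RT1-A2 (chromosome 20, bases 5354222 to 5417735) was near 0 in 3 livers, 2 of them SG and 1 SHAM: it had 34.9, 0.00974, 35.6, 36.4 and 0.0114 FPKM in SG 1 to SG 5, against 34.4, 10.2, 0.000667, 22.3 and 12.8 FPKM in SHAM 1 to SHAM 5. The estimated counts there were 1 in SG 2, 1 in SG 5 and 2 in SHAM 3, against 853 to 2818 in the other 7 livers. RT1-A1, whose span (5347445 to 5419016) contains that of RT1-A2, had 15.8, 106, 33.7, 55.8 and 69.3 FPKM in SG 1 to SG 5, against 41.3, 35.6, 42.0, 68.0 and 58.5 FPKM in SHAM 1 to SHAM 5. SG 2 was highest and SG 1 lowest. Summed, both genes came to 50.7, 106, 69.3, 92.1 and 69.3 FPKM in SG 1 to SG 5, against 75.6, 45.8, 42.0, 90.2 and 71.3 FPKM in SHAM 1 to SHAM 5, a span of 2.51-fold between livers, against 6.67-fold for RT1-A1 alone. RT1-A2 made up 0.0016% to 68.8% of that sum. The bases given for RT1-A2 were set by an assembled isoform with 2.13% of its FPKM. Its reference isoforms lay within bases 5374985 to 5378539. Several assembled RT1-A1 isoforms started in that stretch, among them the largest (30.1% of RT1-A1 FPKM, from base 5375650). The separate levels of both genes are therefore uncertain. The log2 fold changes were 0.36 ± 0.46 for RT1-A1 and 0.37 ± 1.52 for RT1-A2 (SE); on log2(FPKM + 0.5) in limma they were -0.03 and -0.44, the opposite sign.

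A second set of class I genes, RT1-CE, lies in the RT1-C/E region, whose products are mostly non-classical. RT1-CE5 (4771578 to 4940259) had 26.5, 104, 10.5, 44.6 and 39.9 FPKM in SG 1 to SG 5, against 17.8, 9.48, 48.4, 7.47 and 1.35 FPKM in SHAM 1 to SHAM 5. SG 2 was highest and SHAM 5 lowest, a 76.6-fold span, and only SG 2 lay outside the SHAM range. It averaged 45.0 ± 35.3 FPKM in the SG livers and 16.9 ± 18.5 FPKM in the SHAM livers (SD, n = 5 each), with a log2 fold change of 1.52 ± 0.73 (SE, unadjusted p = 0.0618 and adjusted p = 0.991 in edgeR), which was 1.099 without SG 2 and 2.39 without SHAM 3. Assembled isoforms made up 91.8% of its FPKM, and likewise 95.7% for RT1-CE4, 87.8% for RT1-CE7 and 99.5% for RT1-CE10. Assembled isoforms of 315 and 280 bases, near the mean insert of 300 bp, held 59.7% and 24.3% of RT1-CE5 FPKM. RT1-CE3 (4931965 to 4935372) had 2.19, 3.08, 2.15, 2.39 and 1.54 FPKM in SG 1 to SG 5, against 2.48, 2.20, 1.87, 0.123 and 0.12 FPKM in SHAM 1 to SHAM 5. SHAM 4 and SHAM 5 stood far below the other 8 livers, with 14 estimated counts each against 178 to 367, and the log2 fold change of 0.69 ± 0.73 was not past the test (adjusted p = 0.991 in edgeR). RT1-CE4 had 23.4, 25.4, 29.9, 34.9 and 15.7 FPKM in SG 1 to SG 5, against 27.1, 29.1, 30.0, 29.5 and 30.2 FPKM in SHAM 1 to SHAM 5. In FPKM the SHAM livers were close together and 3 SG livers lay below them. The estimated counts, from which the fold change comes, did not show this. Before scaling to library size they were 3263, 2144, 4476, 2746 and 1521 in SG 1 to SG 5, against 1967, 3816, 1999, 2882 and 2957 in SHAM 1 to SHAM 5. RT1-CE7 had 19.5, 27.2, 25.4, 13.9 and 16.8 FPKM in SG 1 to SG 5, against 21.1, 21.7, 16.8, 18.4 and 29.1 FPKM in SHAM 1 to SHAM 5, with the groups overlapping. RT1-CE10, which lies apart from the others at bases 88396 to 176612, had 4.82, 20.3, 10.7, 11.2 and 10.4 FPKM in SG 1 to SG 5, against 10.5, 11.5, 10.01, 10.4 and 12.7 FPKM in SHAM 1 to SHAM 5. Here SG 1 was lowest and SG 2 highest, outside a tight SHAM range on either side. The log2 fold changes were -0.16 ± 0.33 for RT1-CE4, -0.06 ± 0.21 for RT1-CE7 and 0.42 ± 0.31 for RT1-CE10 (SE), the last with the opposite sign, -0.07, on log2(FPKM + 0.5).

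The same livers, SHAM 4 and SHAM 5, shared further features at the RT1-A locus, singled out after the values were seen. An assembled RT1-A1 isoform of 269 bases and 3 exons had 26.8 FPKM in SHAM 4 and 25.9 FPKM in SHAM 5, and at most 0.066 FPKM in the other 8 livers. An assembled isoform of 525 bases had 4.56 FPKM in SHAM 4 and 6.28 FPKM in SHAM 5, and was listed at 0 in the others. A reference isoform of RT1-A1 with 8 exons and 1561 bases was listed at 0 in SHAM 4 and SHAM 5 and had 0.897 to 5.76 FPKM in the other 8 livers. Such patterns also joined other livers. An assembled RT1-A1 isoform of 846 bases had 9.67 FPKM in SHAM 2 and 25.2 FPKM in SHAM 4. Another, of 682 bases, had 1.40 FPKM in SG 1 and 27.2 FPKM in SG 3, and both were listed at 0 elsewhere. Sharing an isoform was therefore not particular to SHAM 4 and SHAM 5. The build Rnor_6.0 represents the inbred Brown Norway strain, whereas Wistar rats are outbred and MHC genes are known to vary between rats. The labels do not give the RT1 haplotype of these rats. Neither haplotype nor the splitting of reads between similar genes was tested as a source of these patterns.

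The class I genes in the stretch from RT1-N2 to RT1-T24 held the other low unadjusted p-values. RT1-S3 (3173461 to 3350927) had 54.1, 52.8, 43.2, 30.4 and 60.9 FPKM in SG 1 to SG 5, against 111, 49.9, 39.0, 50.1 and 143 FPKM in SHAM 1 to SHAM 5. SHAM 5 and SHAM 1 stood above all other livers, and SG 4 was lowest. It averaged 48.3 ± 11.8 FPKM in the SG livers and 78.6 ± 45.7 FPKM in the SHAM livers (SD, n = 5 each), with a log2 fold change of -0.78 ± 0.35 (SE, unadjusted p = 0.047 in edgeR), -0.44 without SHAM 5, and 0.16 when only isoforms matching the reference were counted. RT1-T24-3 (3226313 to 3233694) had 2.78, 3.18, 3.19, 2.34 and 3.77 FPKM in SG 1 to SG 5, against 4.97, 3.33, 2.28, 4.68 and 14.9 FPKM in SHAM 1 to SHAM 5. SHAM 5 stood apart, and the other 9 livers ran from 2.28 to 4.97 FPKM. It averaged 3.05 ± 0.529 FPKM in the SG livers and 6.04 ± 5.10 FPKM in the SHAM livers (SD, n = 5 each), with a log2 fold change of -1.31 ± 0.49 (SE, unadjusted p = 0.0224 in edgeR), which was -0.60 without SHAM 5.

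RT1-T24-4 had 6.403, 11.4, 7.87, 8.35 and 10.5 FPKM in SG 1 to SG 5, against 7.78, 6.59, 4.88, 9.22 and 20.9 FPKM in SHAM 1 to SHAM 5, again with SHAM 5 apart. RT1-T24-1 had 1.31, 1.24, 0.909, 0.889 and 0.796 FPKM in SG 1 to SG 5, against 1.28, 0.673, 1.18, 1.92 and 2.09 FPKM in SHAM 1 to SHAM 5. SHAM 5 and SHAM 4 were highest and the groups overlapped. RT1-N2 had 8.31, 15.2, 26.1, 20.6 and 3.75 FPKM in SG 1 to SG 5, against 16.3, 13.3, 9.36, 5.55 and 10.5 FPKM in SHAM 1 to SHAM 5, and RT1-N3 had 9.45, 20.4, 11.5, 9.02 and 1.66 FPKM in SG 1 to SG 5, against 24.9, 9.08, 8.20, 7.71 and 23.3 FPKM in SHAM 1 to SHAM 5. SG 5 was the lowest liver for both, and for RT1-N3 SHAM 1 and SHAM 5 were highest. RT1-M6-2 had 1.45, 1.85, 2.15, 1.48 and 1.80 FPKM in SG 1 to SG 5, against 1.46, 1.33, 1.64, 1.73 and 1.05 FPKM in SHAM 1 to SHAM 5, the smallest within-group spread of the tested members on log2(FPKM + 0.5). The log2 fold changes were -0.18 ± 0.33 for RT1-T24-4, -0.57 ± 0.32 for RT1-T24-1, 0.23 ± 0.46 for RT1-N2, -0.38 ± 0.47 for RT1-N3 and 0.18 ± 0.19 for RT1-M6-2 (SE), with adjusted p from 0.991 to 0.993 in edgeR; without SHAM 5 that of RT1-T24-4 was 0.22.

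**Figure D3:**
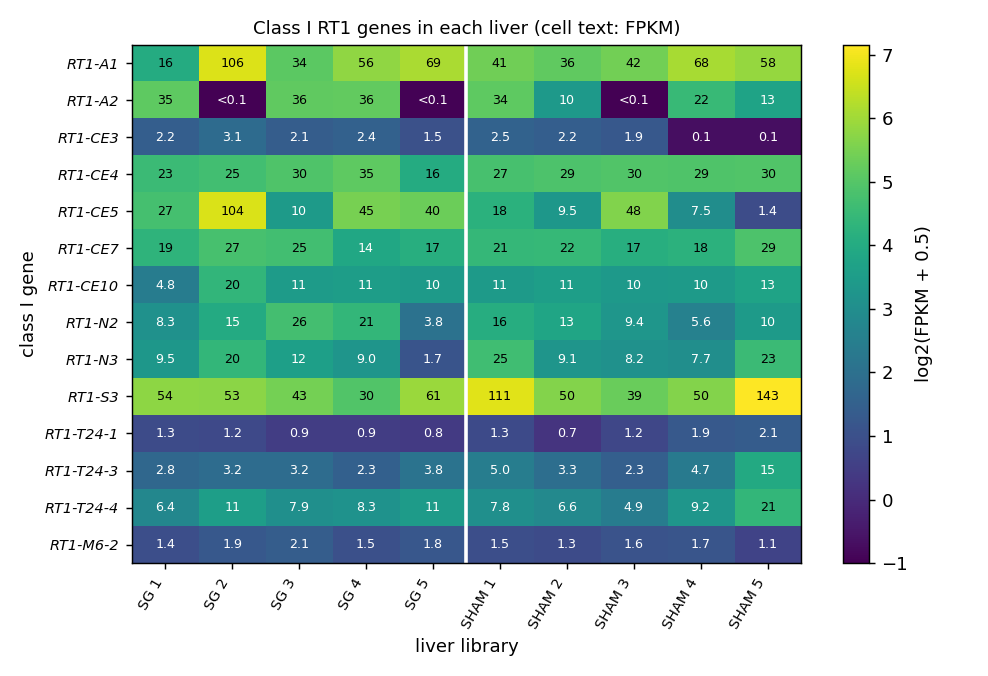
FPKM of the 14 tested class I RT1 genes in each liver, genes down and libraries across, SG left of the white line and SHAM right of it; colour is log2(FPKM + 0.5) and the cell text gives FPKM. RT1-A2 is dark in SG 2, SG 5 and SHAM 3, and RT1-CE3 in SHAM 4 and SHAM 5.

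Cd74 and the chains of RT1-D ranked the livers in much the same order, with the groups overlapping. Cd74, the invariant chain, had 18.5, 81.0, 24.4, 35.6 and 28.2 FPKM in SG 1 to SG 5, against 19.4, 28.2, 13.0, 37.4 and 65.2 FPKM in SHAM 1 to SHAM 5. SG 2 stood apart from the other SG livers, SHAM 5 was the next highest and SHAM 3 the lowest. RT1-Da, an alpha chain of the RT1-D molecule, had 7.92, 27.7, 7.92, 13.3 and 10.9 FPKM in SG 1 to SG 5, against 7.87, 12.1, 6.30, 17.2 and 23.5 FPKM in SHAM 1 to SHAM 5. Its beta chain RT1-Db1 had 1.101, 7.24, 1.88, 3.69 and 2.36 FPKM in SG 1 to SG 5, against 1.59, 1.49, 1.13, 3.86 and 4.24 FPKM in SHAM 1 to SHAM 5, with SG 2, SHAM 5 and SHAM 4 at the top. The log2 fold changes were 0.09 ± 0.50 for Cd74, -0.09 ± 0.45 for RT1-Da and 0.12 ± 0.49 for RT1-Db1 (SE), with adjusted p from 0.993 to 0.997 in edgeR. Without SG 2 they were -0.42, -0.53 and -0.17, and without SHAM 5 they were 0.53, 0.24 and 0.50.

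The RT1-B molecule gave the alpha chain RT1-Ba with 1.69, 6.59, 2.34, 0.648 and 3.19 FPKM in SG 1 to SG 5, against 1.26, 0.755, 1.16, 4.74 and 4.47 FPKM in SHAM 1 to SHAM 5. Its beta chain RT1-Bb had 0.906, 6.47, 1.39, 2.43 and 4.77 FPKM in SG 1 to SG 5, against 1.15, 0.733, 0.462, 4.76 and 3.53 FPKM in SHAM 1 to SHAM 5. SG 2 was highest for both, and SG 4 was lowest for the alpha chain but midway for the beta chain. The 6-exon reference isoform of RT1-Bb had 1.43 to 5.52 FPKM in SG 2, SG 4, SG 5 and SHAM 4 and at most 0.0019 FPKM in the other 6 livers. Of the peptide-exchange pair, RT1-DMa had 2.09, 3.93, 1.68, 1.39 and 1.05 FPKM in SG 1 to SG 5, against 2.15, 1.19, 2.39, 1.89 and 2.66 FPKM in SHAM 1 to SHAM 5, and RT1-DMb had 2.76, 3.06, 2.43, 2.08 and 2.31 FPKM in SG 1 to SG 5, against 1.57, 1.09, 1.19, 3.84 and 1.89 FPKM in SHAM 1 to SHAM 5. For RT1-DMb the SG livers lay close together inside a broader SHAM range. The log2 fold changes were 0.10 ± 0.68 for RT1-Ba, 0.58 ± 0.83 for RT1-Bb, -0.06 ± 0.37 for RT1-DMa and 0.23 ± 0.39 for RT1-DMb (SE), none past the test (adjusted p from 0.993 to 0.997 in edgeR). That of RT1-Bb was 0.05 without SG 2 and 1.37 without SHAM 4.

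**Figure D4:**
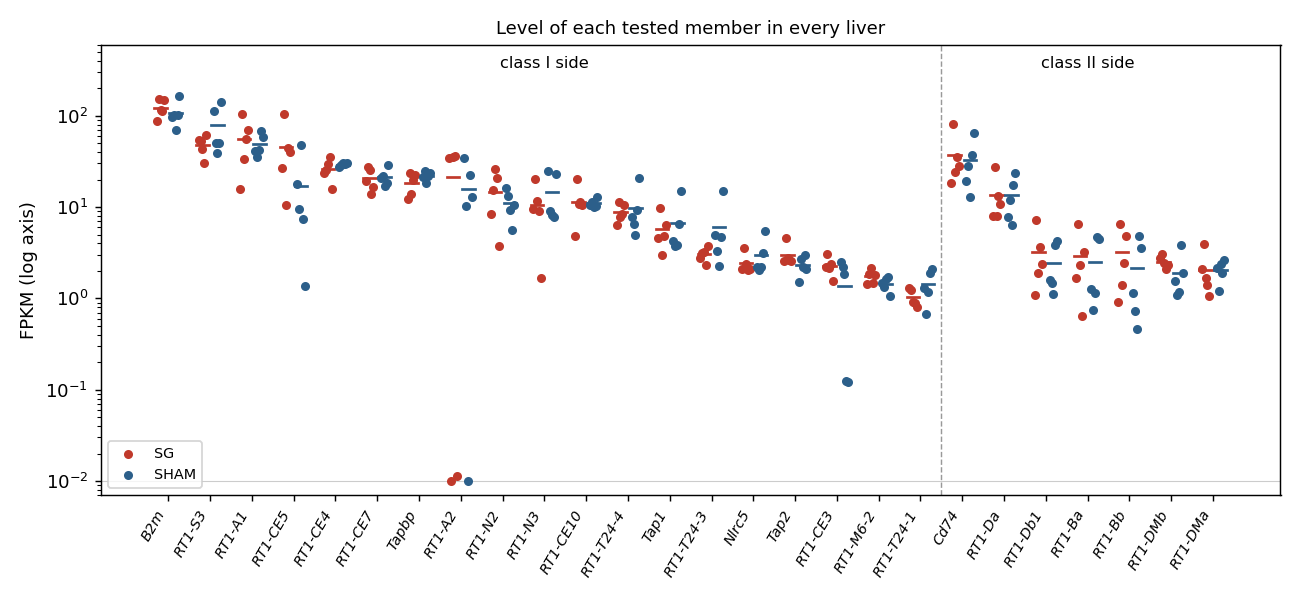
FPKM of the 26 tested members on a log axis, SG in red to the left and SHAM in blue to the right for each gene; each dot is a liver, the short line is the group mean, and values under 0.01 are drawn at 0.01. Every member's groups overlap, and B2m (69.5 to 163.6 FPKM) is the highest gene by mean.

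The other 11 members stayed under the filter and were not tested. Ciita, the class II regulator, had 0.356 to 1.13 FPKM in SG and 0.267 to 0.782 FPKM in SHAM, with SG 2 and SHAM 5 highest. RT1-M6-1 had 0.587 to 1.25 FPKM in SG and 0.36 to 0.746 FPKM in SHAM, with 4 SG livers above all SHAM livers. RT1-M2 had 0.531 to 1.27 FPKM in SG and 0.387 to 1.55 FPKM in SHAM, and RT1-M3-1, whose mouse counterpart presents N-formylated peptides, had 0.504 to 0.976 FPKM in SG and 0.55 to 1.44 FPKM in SHAM. RT1-DOa and RT1-DOb, the chains of an inhibitor of DM that is best known from B cells, reached at most 0.537 FPKM in SG and 0.39 FPKM in SHAM. RT1-CE1 reached at most 0.408 FPKM in SG and 0.444 FPKM in SHAM. RT1-Db2, RT1-Ha, RT1-M4 and RT1-S2 stayed at or below 0.126 FPKM in SG and 0.117 FPKM in SHAM and were listed at 0 in at least 3 livers each.

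Within the groups, the members varied more from liver to liver than most genes did. The within-group SD of log2(FPKM + 0.5) had a median of 0.66 over the tested members, 0.57 on the class I side and 0.79 on the class II side, against 0.25 over all tested genes. The highest of the libraries exceeded the lowest by over 5-fold for 12 of 26 members (46.2%) and for 9.30% of all genes. The SD of RT1-A2 lay at the 99.8th percentile of all tested genes and that of RT1-CE5 at the 99.0th. Individual isoforms were more uneven still: of 57 class I RT1 isoforms with a mean of at least 1 FPKM, 39 (68.4%) fell below 0.1 FPKM in at least 1 liver, against 17.4% of 18719 such isoforms over all genes. Among assembled isoforms the shares were 73.3% of 45 and 27.3% of 8602. For B2m, Tap1, Tap2, Tapbp and Nlrc5 it was 0 of 6. Assembled isoforms carried 65.8% to 87.8% of class I RT1 FPKM in SG and 77.8% to 88.0% in SHAM. SG 2 was the highest liver for 11 of 26 tested members (42.3%) and SHAM 5 for 8 (30.8%), while SG 2 was highest for 15.9% of all genes and SHAM 5 for 6.74%.

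How members followed each other across the 10 livers was examined in 30 gene pairs, on log2(FPKM + 0.5), with permutation p-values from 100000 resamples adjusted over the 30. Cd74 followed RT1-Da (Pearson's r = 0.98, permutation p = 1e-05, the smallest that these resamples can give, adjusted p = 0.0003; Spearman's rho = 0.96, adjusted permutation p = 0.0021) and RT1-Db1 (r = 0.94, adjusted permutation p = 0.0003; rho = 0.92, adjusted permutation p = 0.00915). It also followed RT1-Bb (r = 0.82, adjusted permutation p = 0.0267; rho = 0.76, adjusted permutation p = 0.149). With RT1-Ba, RT1-DMa and RT1-DMb, r was 0.67, 0.39 and 0.44 and did not pass. The libraries farthest from the median of Cd74 were SG 2 and SHAM 5. Without both, r was 0.93 for RT1-Da (adjusted permutation p = 0.0288), 0.88 for RT1-Db1 (adjusted permutation p = 0.0642) and 0.76 for RT1-Bb (adjusted permutation p = 0.228), so among the class II pairs only RT1-Da passed without them.

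On the class I side, Nlrc5 followed Tap1 (r = 0.88, adjusted permutation p = 0.0267; rho = 0.50, adjusted permutation p = 0.41), RT1-T24-4 (r = 0.84, adjusted permutation p = 0.0314; rho = 0.59, adjusted permutation p = 0.396) and RT1-T24-1 (r = 0.77, adjusted permutation p = 0.0397; rho = 0.67, adjusted permutation p = 0.236). The other 15 class I pairs did not pass, with r from -0.68 for RT1-CE3 to 0.81 for RT1-T24-3, and B2m at 0.59. Without SG 2 and SHAM 5, the r of Nlrc5 was 0.36 with Tap1, 0.28 with RT1-T24-4 and 0.77 with RT1-T24-1, and 0 of 18 class I pairs passed, as was also so without SHAM 5 alone. The relations of Nlrc5 with Tap1 and RT1-T24-4 rested on those livers, whereas r with RT1-T24-1 was as large over the other 8 livers but did not pass.

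The summed markers listed for macrophages, dendritic cells, and T and NK cells were highest in SG 2 and SHAM 5, the livers with the highest class II sums. Sums for several other cell types were highest in SG 2 without SHAM 5 standing next. The hepatocyte sum, mostly Alb, was low in both. The summed FPKM of the 12 macrophage and Kupffer cell markers of 13 listed was 313.3 to 694 in SG and 264 to 686 in SHAM, highest in SG 2 and SHAM 5. Cd74 and the Kupffer cell lectin Clec4f gave r = 0.73 (adjusted permutation p = 0.0594; rho = 0.45, adjusted permutation p = 0.41), and Cd74 with Cd68, Csf1r and Vsig4 gave r = 0.73, 0.76 and 0.58, none of which passed. Without SG 2 and SHAM 5 the r of Cd74 was 0.32 with Cd68 and between -0.06 and 0.01 with Csf1r, Clec4f and Vsig4. Dendritic cell markers summed to 3.15 to 6.06 FPKM in SG and 2.24 to 5.21 FPKM in SHAM over 8 genes, highest in SG 2 and SHAM 5, with the plasmacytoid marker Siglech below 0.1 FPKM in every liver. The SG 2 sum was mostly Clec10a (2.02 FPKM, against at most 0.697 elsewhere) and Zbtb46 (1.95 FPKM). Flt3, Itgax and Ccr7 were highest in SHAM 5 with SG 2 next. In SG 2, Clec9a (0.556 FPKM) and Xcr1 (0.079 FPKM) lay inside the range of the other livers, and both were highest in SHAM 5. The sum therefore does not establish more dendritic cells in SG 2. The 8 B and plasma cell markers summed to 21.7 to 71.3 FPKM in SG and 7.08 to 26.9 FPKM in SHAM, highest in SG 2, mostly Jchain. The 13 listed T and NK cell markers summed to 11.7 to 22.2 FPKM in SG and 9.62 to 27.8 FPKM in SHAM, highest in SHAM 5 and SG 2. That sum was mostly Cd4 (7.23 to 17.8 FPKM), whereas Cd3d, Cd3e and Cd3g reached at most 0.671 FPKM. It therefore largely gives the level of 1 gene and does not establish T or NK cells. Stellate cell and fibroblast markers summed to 116.6 FPKM in SG 2, against 44.5 to 62.8 FPKM in the other SG livers and 34.4 to 68.1 FPKM in SHAM. Endothelial markers (76.7 to 109.9 FPKM in SG and 60.2 to 96.2 FPKM in SHAM) and neutrophil markers (1.06 to 3.85 FPKM in SG and 0.384 to 1.62 FPKM in SHAM) were also highest in SG 2. The 9 hepatocyte markers, Alb foremost, summed to 23890 FPKM in SG 2 and 24010 FPKM in SHAM 5, among the 3 lowest sums, in ranges of 23890 to 37250 FPKM in SG and 22840 to 33120 FPKM in SHAM. The lowest hepatocyte sum, 22840 FPKM, was in SHAM 3, which also had the lowest class II sum. Single hepatocyte markers did not all follow Alb. In SG 2, Tat was the lowest of all livers at 167 FPKM, but Asgr1, at 215 FPKM, was exceeded only by SHAM 2 (216 FPKM). The part of these cell types in the levels of the members was not tested. Markers of spleen, thymus and lymph node summed to 1.79 to 17.3 FPKM in SG and 1.09 to 3.14 FPKM in SHAM, with Cr2, Ptcra, Rag1 and Rag2 below 0.1 FPKM in every liver. SG 2 was highest mostly through Ccl21, at 13.6 FPKM against 1.37 to 2.86 FPKM in the other SG livers and 0.453 to 2.22 FPKM in SHAM. It was also highest for Ccl19 (1.89 FPKM, against at most 0.824 elsewhere) and Cxcl13 (1.60 FPKM, against at most 0.485 elsewhere).

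**Figure D5:**
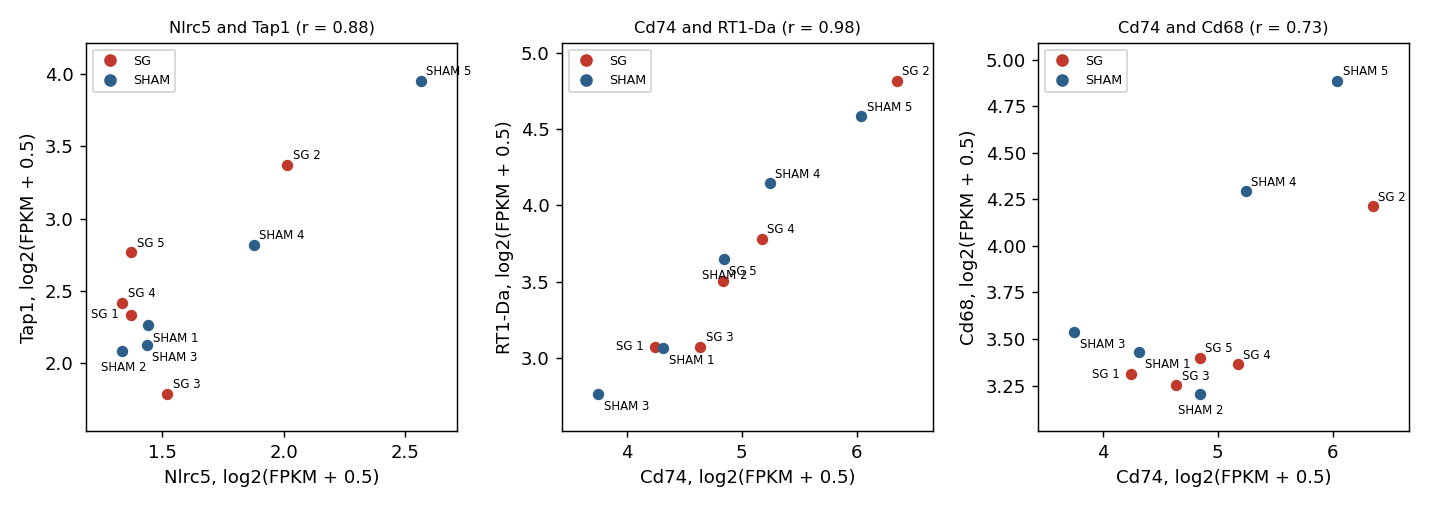
Log2(FPKM + 0.5) of gene pairs across the 10 livers, each dot a library, SG in red and SHAM in blue: Nlrc5 and Tap1 (left), Cd74 and RT1-Da (middle), Cd74 and the macrophage marker Cd68 (right). Cd74 and RT1-Da lie along a line over the whole range (r = 0.98), whereas SG 2 and SHAM 5 set the upper end for Nlrc5 and Tap1 (r = 0.88).

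Around the members, genes that supply them were followed through lists. Of 16 partners of class I loading and peptide supply, all tested, 5 were above and 11 below 0 in log2 fold change (median -0.16), and 0 passed the edgeR test. The smallest p-values belonged to the proteasome activator Psme1 (-0.20 ± 0.10), the immunoproteasome subunit Psmb10 (-0.32 ± 0.19) and the chaperone Calr (-0.26 ± 0.16; SE each, adjusted p = 0.991 in edgeR). Of 11 tested class II processing genes, 4 were above and 7 below 0 (median -0.07). The endosomal protease Ctsd, at 59.1 ± 6.97 FPKM in the SG livers and 68.5 ± 11.9 FPKM in the SHAM livers (SD, n = 5 each), had -0.32 ± 0.14 (SE) with an unadjusted p of 0.0492 and an adjusted p of 0.991 in edgeR, followed by the protease Ctsh (0.26 ± 0.17) and the tetraspanin Cd63 (0.31 ± 0.28). Of 9 tested subunits of the complex on the W/S-X-Y promoters, 6 were above and 3 below 0 (median 0.04), and 0 passed. Nfyb, a subunit of the CCAAT-binding factor NF-Y, had 0.42 ± 0.20, Rfxank 0.20 ± 0.12 and Creb1 0.49 ± 0.37 (SE, adjusted p = 0.991 in edgeR). The 4 tested costimulatory and related ligands had 1 above and 3 below 0 (median -0.12).

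Most of the type I interferon genes were highest in SHAM 5. Of 12 tested genes of the interferon gamma pathway, 4 were above and 8 below 0 (median -0.18; 0.03 without SHAM 5), and 0 passed; SHAM 5 was the highest liver for 8 of them and SG 2 for 3; Gbp2 (-1.07 ± 0.52), Irgm (-0.99 ± 0.53) and Cxcl9 (-0.42 ± 0.34) had the smallest p-values (SE, adjusted p = 0.991 in edgeR). Of 25 tested type I interferon genes, 1 was above and 24 below 0 (52.6% of all genes lay below), and 12 were lower in SG at an unadjusted p below 0.05 (1.85% of all genes), with 0 past the adjusted test (median -1.15). Without SHAM 5 that median was -0.07, and SHAM 5 was the highest liver for 22 of the 25. Usp18, an interferon-induced protease that dampens the same response, had 2.81, 1.72, 3.38, 0.720 and 2.98 FPKM in SG 1 to SG 5, against 6.23, 3.76, 1.70, 2.83 and 49.2 FPKM in SHAM 1 to SHAM 5. Ifi27 (-0.68 ± 0.23) and Irf9 (-1.02 ± 0.35) had the smallest p-values (SE, adjusted p = 0.991 in edgeR), at -0.49 and -0.75 without SHAM 5. SHAM 5 was also the highest liver for 8 of 19 tested class I side members and for 0 of 7 on the class II side. Usp18 and Nlrc5 gave r = 0.70 across the livers (adjusted permutation p = 0.13; rho = 0.37, adjusted permutation p = 0.492), and -0.09 without SHAM 5; Usp18 and B2m gave r = 0.43 (adjusted permutation p = 0.297; rho = 0.30, adjusted permutation p = 0.555), and -0.06 without it. The part of the interferon genes in the class I levels was not tested further.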

How the data were processed

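Ribosomal RNA was removed from about 5 µg of liver RNA with integrity numbers above 7.0, and libraries had a mean insert of 300 bp, per the labels' protocols. HISAT2 2.0.4, StringTie 1.3.4, cutadapt 1.9 and the build Rnor_6.0 are named in the submitters' processing notes. The deposited table lists 51430 isoforms. Its FPKM columns, as deposited, are normalized to RNA length and depth, per the file headers. Estimated counts, also deposited by the authors, were rounded before testing. They are shared between isoforms by estimate, so p-values rest on estimates.

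Members and gene lists were chosen with earlier results of these data known. Of 177 isoforms with a member name, 164 matched, shared a junction with or overlapped the gene on its strand and were summed per gene, while 13 intronic or opposite-strand isoforms were left out. Counts were tested with edgeR 4.0.16 (quasi-likelihood, TMM scaling, R 4.3.3), two-sided, with Benjamini-Hochberg adjustment over 11139 genes at a mean of at least 1 FPKM and a threshold of 0.05. Standard errors came from the F statistic. Limma 3.58.1 on log2(FPKM + 0.5) and DESeq2 1.42.0 were alternatives. Over all genes the median log2 fold change was 0.08 in limma on FPKM and -0.01 in edgeR.

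Every member is accounted for, with values per library for those that passed the filter. Of each list, up to 3 genes with the smallest unadjusted p were named. Correlations used scipy 1.17.1; because Ciita missed the filter, Cd74 took its place. Scripts were tested on simulated data. Isoforms of a gene name found at several loci were summed. Promoter windows and symbols came from RefSeq GRCr8; the table's coordinates are those of Rnor_6.0 and were not converted. Some list genes are not reported here.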

Additional observations from a re-analysis of the deposited data

Results flagged for a closer look

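Each liver was compared with the other 4 of its group, for the 26 tested members and both class sums. A value counted as standing apart where its gap to the nearest of the others exceeded 0.71 of the group's range, Dixon's 95% limit for 5 values. Of 56 groups examined, 8 held such a liver. Chance gives about 1 in 20 groups if values are normally distributed, and genes share livers, so these are not independent. The share over all genes is not given here, so the count cannot be read as particular to the members. Across all genes, SG 2 was the highest liver for 15.9% and SHAM 5 for 6.74%.

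SG 2 was above the other 4 SG livers for Cd74 (81.0 FPKM, against 18.5 to 35.6), RT1-Da (27.7 FPKM, against 7.92 to 13.3) and the summed class II RT1 genes (55.8 FPKM, against 16.8 to 25.1). It was also above them for Nlrc5 (3.54 FPKM, against 2.02 to 2.37) and Tap2 (4.54 FPKM, against 2.57 to 2.80).

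SHAM 5 was above the other 4 SHAM livers for RT1-T24-3 (14.9 FPKM, against 2.28 to 4.97), RT1-T24-4 (20.9 FPKM, against 4.88 to 9.22) and Tap1 (15.0 FPKM, against 3.74 to 6.56). Summed macrophage markers were also highest in SG 2 (694 FPKM) and SHAM 5 (686 FPKM).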

How the results depend on the processing

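No member passed the adjusted test under any of the alternatives run, and 10 of 26 kept the sign of their fold change throughout. Over all genes, the adjusted count of 0 became 18 in DESeq2, 1 without both SG 2 and SHAM 5, and 0 to 1 when 1 library was left out. The unadjusted count of 505 became 912 with no filter (more genes tested), 314 at a filter of 5 FPKM (fewer genes tested) and 323 in limma on TPM, and ran from 398 to 642 with 1 library left out. The 3 members at an unadjusted p became 1 at a filter of 5 FPKM, 0 in limma on FPKM at each pseudocount, 1 in limma on TPM, 0 without both SG 2 and SHAM 5, and 1 to 4 with 1 library left out (1 without SHAM 5).

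Libraries with the same replicate number did not deviate together (r from -0.26 to 0.14, and 2 of 5 matched their own number best). No pairing by number was seen, though so few libraries cannot exclude one. With the replicate block, 0 genes passed in edgeR, 456 genes and 1 member had an unadjusted p below 0.05, and RT1-A1 stood at -0.0093 and RT1-A2 at -0.99, both with the sign turned.

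Other turned signs follow. In limma on log2(FPKM + 0.5), log2(FPKM + 0.1), log2(FPKM + 1) and log2(TPM + 0.5), in that order, RT1-A1 had -0.031, -0.034, -0.027 and -0.14, RT1-A2 -0.44, -0.84, -0.27 and -0.70, and RT1-CE10 -0.065, -0.074, -0.057 and -0.18. On FPKM, RT1-Da had 0.0080, 0.0094 and 0.0066 at pseudocounts 0.5, 0.1 and 1, and RT1-T24-4 0.0051 and 0.011 at 0.5 and 0.1. With reference isoforms only, RT1-CE4 had 0.14, RT1-Da 0.12 and RT1-S3 0.16. Without both SG 2 and SHAM 5, RT1-A1 had -0.12, RT1-Ba -0.14, RT1-CE7 0.062 and RT1-T24-4 0.15. With 1 library left out, fold changes ran from -0.011 to 0.33 for B2m, -0.42 to 0.53 for Cd74, -0.14 to 0.60 for RT1-A1, -0.47 to 0.50 for RT1-Ba, -0.44 to 0.049 for RT1-CE4, -0.16 to 0.17 for RT1-CE7, -0.45 to 0.12 for RT1-DMa, -0.056 to 0.56 for RT1-DMb, -0.53 to 0.24 for RT1-Da, -0.17 to 0.50 for RT1-Db1, -0.032 to 0.49 for RT1-N2, -0.36 to 0.22 for RT1-T24-4 and -0.62 to 0.24 for Tap1. The log2 ratio of sums ran from -0.15 to 0.15 for class I and from -0.24 to 0.43 for class II.

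Of correlated pairs, the 3 class I pairs became 5 on CPM, 5 with group means subtracted, and 0 without the 2 farthest libraries; leaving out SHAM 5, or SG 2 and SHAM 5, was chosen after seeing the data and also left 0. The 3 class II pairs became 1 without the 2 farthest libraries and 1 without SG 2 and SHAM 5, and stayed at 3 without SHAM 5. The 0 macrophage pairs became 3 on CPM and 3 with group means subtracted. Signs turned without SG 2 and SHAM 5, which are also the farthest on Nlrc5 and Cd74, for Nlrc5 with B2m (-0.065), RT1-A2 (0.19) and RT1-M6-2 (0.43), and for Cd74 with RT1-DMa (-0.65), Clec4f (-0.028) and Vsig4 (-0.064). Without SHAM 5 they turned for Nlrc5 with RT1-CE5 (0.14) and RT1-M6-2 (0.50), and for Usp18 with Nlrc5 (-0.089) and B2m (-0.064). Without its own farthest livers, SG 4 and SHAM 5, Usp18 gave -0.44 with Nlrc5 and -0.0048 with B2m. On CPM, Nlrc5 with RT1-N2 gave 0.13. Beyond these constructions, the causes were not tested.

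Low estimated counts limit RT1-A2 in 3 livers and RT1-CE3 in 2.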

Other observations

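Assembled isoforms on the strand opposite to RT1-A2 were left out of the gene sums. An isoform of 206 bases had 6.62 FPKM in SG 2 and 2.90 FPKM in SG 5 and was listed at 0 in the other 8 livers. Another, of 295 bases, had 3.22 FPKM in SG 2 and 2.29 FPKM in SG 5, and at most 0.0011 FPKM elsewhere. SG 2 and SG 5 are also livers in which RT1-A2 itself had 1 estimated count, while in SHAM 3, where RT1-A2 had 2, both isoforms were listed at 0. The labels do not state that the libraries keep strand, so these reads and those of RT1-A2 cannot be told apart, and both isoforms were picked with their values in view.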
